A study of Mus musculus with 8 samples.

Results

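This account covers 32 mouse genes of glycolysis and of the response to low oxygen, taken as a fixed list of symbols and read from 2 tables of counts per gene. All 32 were found in the table of 47643 genes for 6 macrophage libraries and in the table of 52458 genes for 2 plasma cell libraries, and all 32 passed the filter on low counts in the macrophage table. They comprise the glucose transporters Slc2a1 and Slc2a3, the monocarboxylate transporters Slc16a1 and Slc16a3, 10 enzyme genes of upper glycolysis, 8 of lower glycolysis, 3 regulators, 3 oxygen sensing genes and 4 targets of hypoxia signalling. Every mouse was wild type and of the B6 strain, and the labels give no age. Cells of the Vk*MYC myeloma, which is a plasma cell tumour of mice and here carried green fluorescent protein (GFP), had been placed in the tibia of the tumour-bearing animals. Macrophages from the marrow of these animals (tumour-associated macrophages, TAM) were gated on high F4/80 and low CD11b. Those with GFP were in contact with the tumour (GFP+ TAM, n = 2 libraries) and those without GFP were not (GFP- TAM, n = 2). Bone marrow macrophages of naive mice were the controls (n = 2). No treatment was given beyond the tumour. The study asked how macrophages beside the tumour differ from those away from it and from those of healthy marrow. The myeloma is 1 transplanted line, and contact with it was read from GFP in the sorted cell. The labels number the TAM libraries by mouse and do not say how many animals gave each naive library, so the p-values here reflect the spread among libraries. The 2 plasma cell libraries share 1 label, and which of them is myeloma is not given there.

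Glycolysis splits glucose into pyruvate in the cytosol and yields ATP without oxygen. Glucose enters through transporters of the Slc2a family, hexokinases trap it, phosphofructokinase sets much of the flux, and lactate dehydrogenase turns pyruvate into lactate, which leaves through Slc16a carriers. When oxygen is scarce, prolyl hydroxylases such as those of Egln1 and Egln3 stop marking hypoxia-inducible factor for destruction, and the factor then switches on many glycolytic genes together with Vegfa, Adm, Bnip3 and Ankrd37. Macrophages are known to raise glycolysis on inflammatory activation, and bone marrow is known as a tissue of low oxygen.

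Macrophage libraries held 28887725 to 46873056 counts and plasma cell libraries 38343783 and 81792139. The largest amount that a count of 0 allows in a macrophage library, 3 counts, was 0.064 to 0.104 CPM (counts scaled to the library total), and this limit covers counting error only. GFP+ TAM replicate 2 and GFP- TAM replicate 2 carry the same mouse number, but Xist had 0 counts against 1253 and Ddx3y 3725 counts against 8, so they did not come from 1 animal. Every other macrophage library had 777 to 2521 counts of Xist and 0 to 11 of Ddx3y. GFP+ TAM was thus the only group whose libraries differed in these genes, and the part of sex in the results was not tested. Where a group has a pair of values, replicate 1 comes before replicate 2. Values without each of the TAM libraries of mouse number 2 are given for the leading genes of each comparison. Fits without a library leave 1 library in its group, which is then assumed to vary like the other groups. Summed over 10 macrophage markers, GFP+ TAM held 6343 and 6235 CPM, GFP- TAM 23200 and 12800, and naive macrophages 21420 and 10850, and 0 of the 10 markers were at 0 in any library. Summed over 9 neutrophil markers the levels were 50260 and 28160 CPM in GFP+ TAM, 9137 and 17730 in GFP- TAM, and 47630 and 74210 in naive macrophages, with 0 of the 9 at 0 in any library. Immunoglobulin genes held 9.13% of the counts of GFP- TAM replicate 2 and 0.166% to 0.632% of those of each other macrophage library.

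**Figure D1:**
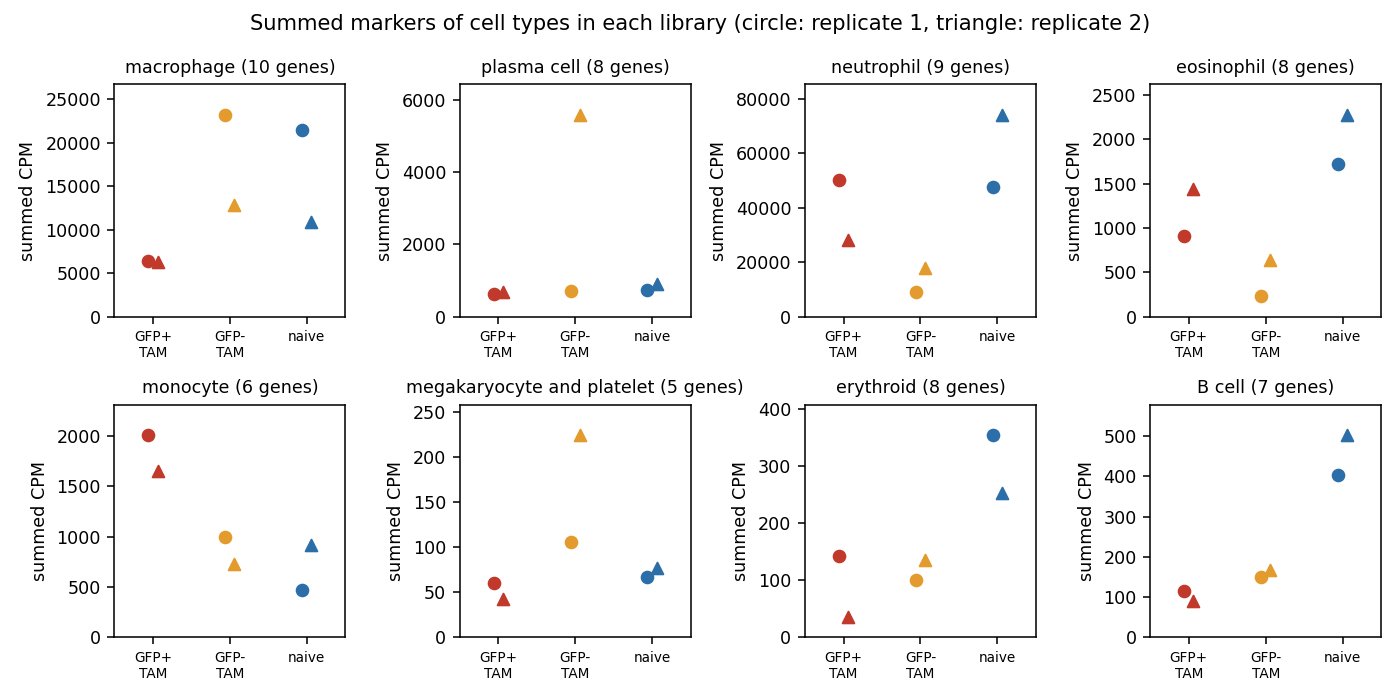
Summed CPM (y axis, linear, from 0) of the marker genes of 8 cell types in each macrophage library, with circles for replicate 1 and triangles for replicate 2. Neutrophil markers were lowest in GFP- TAM (9137 and 17730 CPM), and plasma cell markers stood at 5588 CPM in GFP- TAM replicate 2, against 615 to 901 CPM in the other 5 libraries.

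The 32 genes spanned a wide range of levels. Per kilobase of exon, the most abundant was Pkm, which encodes the pyruvate kinase of most tissues outside liver and red cells, with a median of 193 CPM per kilobase over the 6 macrophage libraries. Aldoa, the main aldolase, followed at 175, Ldha, the lactate dehydrogenase subunit that favours lactate formation, at 149, and Hk3, a hexokinase of myeloid cells, at 95.4 CPM per kilobase. At the other end Eno2, the enolase of neurons, had a median of 0.0848 CPM per kilobase, Adm, the vasodilator peptide adrenomedullin, 0.117, and Ankrd37, an ankyrin repeat gene induced by hypoxia, 0.576. The list therefore held very abundant genes and genes near the limit of detection, and the errors of the low ones were wide. Pfkl, the liver phosphofructokinase, stood between 97.7 and 133 CPM over the 6 libraries, Aldoa between 347 and 674, Tpi1, the triose phosphate isomerase, between 105 and 177, and Pdk1, which shuts pyruvate dehydrogenase, between 36.4 and 80.9. Aldoc, the brain aldolase, stood between 2.39 and 5.48 CPM. Like all 32 genes, these 5 had an edgeR adjusted p above the threshold in every comparison.

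Among enzymes that every cell uses, 3 had low counts. Gapdh, the dehydrogenase at the start of the lower pathway, had 7.39 and 12.4 CPM in GFP+ TAM, 4.01 and 8.34 in GFP- TAM and 7.32 and 11.1 in naive macrophages. Pgk1, which makes the first ATP of the pathway, stood between 4.79 and 10.3 CPM and Pgam1, a phosphoglycerate mutase, between 3.70 and 10.6 CPM over the 6 libraries. Of all windows of 50 bases along the longest coding transcript, 82.5% in Gapdh occur word for word in a transcript of another annotated gene (218 such genes), 68.0% in Pgk1, 41.5% in Pgam1 and 72.2% in Eno1. Shares in Pkm (34.4%), Ldhb (27.0%), Bnip3 (21.9%), Gpi1 (19.3%), Ldha (16.7%), Aldoa (13.5%) and Tpi1 (7.51%) were lower. Pfkfb4, Hk1, Hk2, Hk3 and all 4 transporters shared none. The sources used here do not give how reads that map to several genes were counted. Levels of these genes with copies, and their contrasts, are therefore uncertain. Slc2a1, Hk1, Hk2, Hk3, Gpi1, Pfkm, Pfkp, Aldoa, Tpi1, Gapdh, Pfkfb3, Hif1a, Bnip3, Adm and Ankrd37 also overlap a gene on the opposite strand, and the library method does not mark strand. Slc2a3, Slc16a1 and Pkm overlap genes on the same strand only. These overlaps are of whole gene spans, introns included, and whether exons overlap was not checked.

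**Figure D2:**
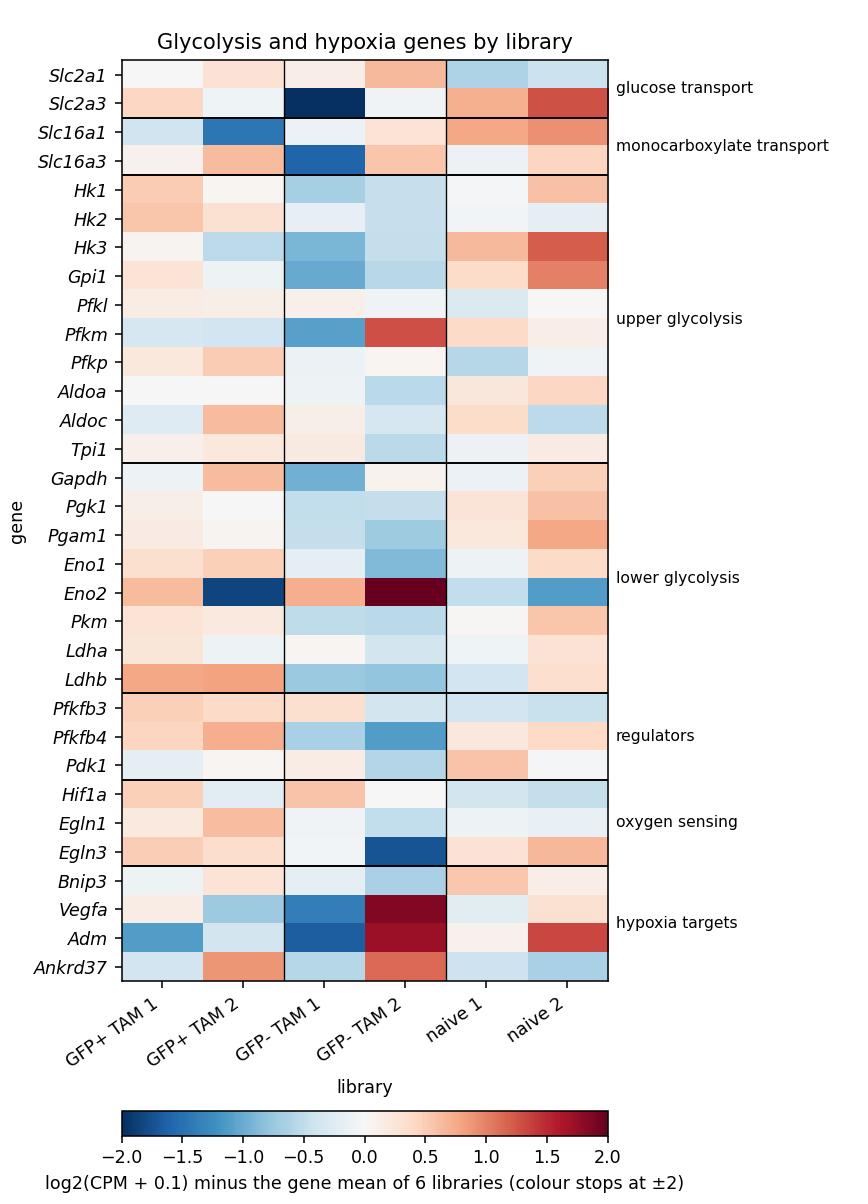
Level of each of the 32 genes (rows, grouped by role) in each macrophage library (columns), as log2(CPM + 0.1) minus the mean of the gene over the 6 libraries, with colours that stop at a difference of 2. The lowest library is GFP- TAM replicate 1 in 10 rows and GFP- TAM replicate 2 in 13, and Vegfa, Adm, Pfkm, Slc2a3 and Slc16a3 have opposite or unlike colours in the 2 libraries of that group.

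Hypoxia-inducible factor is known to bind the letters ACGTG, and also the letters GCGTG. In windows of the 250 bases before each annotated start, read on both strands, 31 of the 32 genes had a window in the RefSeq promoter table (GRCm38.p6), and 18 of these genes had ACGTG in at least 1 window. Counted by window, 46.7% of 45 held ACGTG and 53.3% held GCGTG. Among 14086 windows of all genes tested the shares were 20.8% and 42.4%, with mean GC contents of 60.3% in the windows of the 32 genes and 59.1% in those of all genes tested. The windows of 4 genes with small p-values in the comparisons below are shown on the strand of the gene, 5′ to 3′, with both motifs and their reverse complements in capitals. Pfkfb4 (chr9:108991652-108991901, plus strand) and Ldhb (chr6:142507958-142508207, minus strand) gave the smallest p-values between the TAM groups. Slc2a1 (chr4:119108495-119108744, plus strand) and Slc16a1 (chr3:104638414-104638663, plus strand) stood out against naive macrophages. These 4 were chosen after their values were seen.
Pfkfb4: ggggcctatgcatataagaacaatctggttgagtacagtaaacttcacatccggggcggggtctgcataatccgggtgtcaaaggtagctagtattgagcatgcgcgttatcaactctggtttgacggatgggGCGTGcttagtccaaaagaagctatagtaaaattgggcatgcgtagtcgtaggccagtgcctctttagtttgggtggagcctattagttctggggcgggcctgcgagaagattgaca
Ldhb: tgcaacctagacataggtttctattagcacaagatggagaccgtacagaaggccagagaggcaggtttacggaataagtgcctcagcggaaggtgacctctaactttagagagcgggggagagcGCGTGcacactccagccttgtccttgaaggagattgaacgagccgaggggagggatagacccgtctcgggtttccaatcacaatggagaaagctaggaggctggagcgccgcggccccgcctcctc
Slc2a1: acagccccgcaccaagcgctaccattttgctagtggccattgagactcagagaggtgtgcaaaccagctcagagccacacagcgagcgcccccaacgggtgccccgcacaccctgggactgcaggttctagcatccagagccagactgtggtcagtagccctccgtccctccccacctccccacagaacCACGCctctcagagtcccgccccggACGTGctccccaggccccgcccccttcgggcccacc
Slc16a1: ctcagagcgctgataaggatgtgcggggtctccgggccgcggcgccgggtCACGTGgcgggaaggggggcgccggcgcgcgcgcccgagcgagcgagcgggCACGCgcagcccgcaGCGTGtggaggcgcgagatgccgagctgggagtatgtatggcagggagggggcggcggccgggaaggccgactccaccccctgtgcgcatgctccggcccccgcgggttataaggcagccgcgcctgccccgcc
ACGTG occurred 0 times in the windows of Pfkfb4 and Ldhb, 1 time in that of Slc2a1 and 2 times in that of Slc16a1, where 1 run CACGTG reads the same on both strands and counts once for each. GCGTG occurred 1 time in the windows of Pfkfb4, Ldhb and Slc2a1, and 2 times in that of Slc16a1. A match of letters describes these windows and says nothing of binding.

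GFP+ TAM were first set against GFP- TAM. Both GFP+ TAM libraries lay above both GFP- TAM libraries for 16 of the 32 genes, among them Pfkfb4, Ldhb, Hk1, Hk2, Gpi1 and Pkm, and below them for Slc16a1 and Eno2, where 24.4% and 22.3% of all 15522 genes tested did so. The log2 fold change was positive for 24 genes and negative for 8 (49.9% of all genes tested were positive), and its median was 0.45, beside -0.002 over all genes tested. Over the roles, the median was 0.72 in the lower pathway, 0.71 in oxygen sensing, 0.40 in the upper pathway, 0.41 among regulators and -0.64 among the 4 hypoxia targets. None of the 32 passed the edgeR quasi-likelihood test at an adjusted p under 0.05, and neither did any other gene (0% of 15522). At an unadjusted p under 0.05 there were 8 of the 32 genes, against 17.1% of all genes tested. DESeq2 called 2 of the 32, both higher, where it called 10.3% of the genes it tested, and limma-voom called 0.

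Pfkfb4 gave the smallest p of the 32 in this comparison. It encodes a bifunctional enzyme that sets the amount of the sugar phosphate which activates phosphofructokinase, and it lies at chr9:108991778-109032228 (GRCm38, GENCODE M21, plus strand). It had 238 and 291 CPM in GFP+ TAM, 112 and 80.7 CPM in GFP- TAM, and 203 and 231 CPM in naive macrophages. Both GFP+ TAM libraries were the highest of the 6 and both GFP- TAM libraries the lowest. The log2 fold change was 1.47 ± 0.31 (SE, 2 libraries a group), with an edgeR adjusted p of 0.160, while the DESeq2 adjusted p was 0.000376. Without GFP+ TAM replicate 2 the log2 fold change was 1.28, and without GFP- TAM replicate 2 it was 1.20.

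Ldhb, the lactate dehydrogenase subunit that favours the step back to pyruvate, lies at chr6:142490249-142507957 on the minus strand. It had 23.5 and 24.1 CPM in GFP+ TAM, 8.17 and 7.96 CPM in GFP- TAM, and 10.5 and 17.5 CPM in naive macrophages. The pairs were narrow in both TAM groups and did not overlap. Its log2 fold change was 1.58 ± 0.34 with an edgeR adjusted p of 0.165, and DESeq2 gave an adjusted p of 0.00158. Without GFP+ TAM replicate 2 it was 1.53, and without GFP- TAM replicate 2 it was 1.51. Ldha, its partner subunit, had 589 and 464 CPM in GFP+ TAM, 516 and 386 CPM in GFP- TAM, and 471 and 608 CPM in naive macrophages, and the 3 ranges overlapped.

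Of the first steps of the pathway, Hk1, Hk2 and Gpi1 lay higher in both GFP+ TAM libraries, while Hk3 and both glucose transporters overlapped between the TAM groups. Hk1, the hexokinase of most tissues, had 229 and 166 CPM in GFP+ TAM, 102 and 118 CPM in GFP- TAM and 159 and 243 CPM in naive macrophages. Its log2 fold change between the TAM groups was 0.86 ± 0.31 (adjusted p = 0.250). Hk2, the hexokinase that hypoxia and insulin induce, had 76.9 and 65.1 CPM in GFP+ TAM, 46.8 and 38.2 CPM in GFP- TAM, and 50.7 and 46.5 CPM in naive macrophages. For Hk2 the log2 fold change was 0.75 ± 0.24 (adjusted p = 0.217). Gpi1, which turns glucose phosphate into fructose phosphate, lies at chr7:34201330-34230336 and differed by 0.88 ± 0.36 (adjusted p = 0.291), with 506 and 390 CPM in GFP+ TAM against 207 and 285 CPM in GFP- TAM. For all 3 enzymes the TAM groups did not overlap, and the adjusted p did not pass the threshold. Without GFP+ TAM replicate 2 or without GFP- TAM replicate 2, their log2 fold changes lay between 0.56, for Hk2, and 1.08, for Gpi1.

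In the lower pathway, Eno1, the enolase of most tissues, had 365 and 411 CPM in GFP+ TAM and 256 and 160 CPM in GFP- TAM (log2 fold change 0.91 ± 0.37, adjusted p = 0.287). Between the TAM groups the log2 fold change of Eno1 was 0.79 without GFP+ TAM replicate 2 and 0.57 without GFP- TAM replicate 2. Pkm had 1084 and 1023 CPM in GFP+ TAM, 629 and 618 CPM in GFP- TAM, and 910 and 1323 CPM in naive macrophages. The TAM groups did not overlap, with means of 1054 ± 43.0 CPM in GFP+ TAM and 623 ± 7.32 CPM in GFP- TAM (SD, n = 2 each), and the log2 fold change of 0.77 ± 0.35 did not pass the threshold (edgeR adjusted p = 0.324, DESeq2 adjusted p = 0.0790). Without any 1 library it lay between 0.71 and 0.83. Pgk1 and Pgam1 were likewise higher in both GFP+ TAM libraries, at log2 fold changes of 0.58 ± 0.37 for Pgk1 (edgeR adjusted p = 0.470) and 0.72 ± 0.41 for Pgam1 (edgeR adjusted p = 0.422).

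Genes with the opposite order were few. Slc16a1, the carrier that moves lactate and pyruvate across the membrane in either direction, had 33.1 and 15.9 CPM in GFP+ TAM, 40.1 and 52.8 CPM in GFP- TAM, and 74.4 and 82.6 CPM in naive macrophages. The TAM groups differed by -0.91 ± 0.37 on the log2 scale (adjusted p = 0.287), by -1.47 without GFP+ TAM replicate 1, by -0.49 without GFP+ TAM replicate 2 and by -0.75 without GFP- TAM replicate 2. Eno2 also lay lower in both GFP+ TAM libraries, at 0.584 and 0.0237 CPM against 0.629 and 1.80 CPM in GFP- TAM, where the lowest of these values is 1 count. Slc2a1 (log2 fold change -0.25 ± 0.27) and Hif1a (-0.15 ± 0.35) overlapped between the TAM groups.

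Oxygen sensing genes were split. Egln1, the prolyl hydroxylase that marks hypoxia-inducible factor at normal oxygen, had 65.9 and 88.3 CPM in GFP+ TAM, 54.7 and 41.1 CPM in GFP- TAM, and 53.9 and 52.0 CPM in naive macrophages. Between the TAM groups it differed by 0.71 ± 0.28 (adjusted p = 0.287), and by 0.44 without GFP+ TAM replicate 2 and 0.46 without GFP- TAM replicate 2. Egln3, a related hydroxylase that the factor itself induces, had 10.5 and 9.64 CPM in GFP+ TAM, 7.21 and 2.19 CPM in GFP- TAM, and 9.13 and 11.9 CPM in naive macrophages. Hif1a, the oxygen-regulated subunit of the factor, had 261 and 161 CPM in GFP+ TAM, 280 and 189 CPM in GFP- TAM, and 145 and 136 CPM in naive macrophages. Between the TAM groups Egln3 differed by 1.10 ± 0.61 (edgeR adjusted p = 0.410), by 2.26 without GFP- TAM replicate 1 and by 0.45 without GFP- TAM replicate 2. Every TAM library of Hif1a lay above both naive ones.

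The 4 hypoxia targets had no common order. Vegfa, a growth factor for blood vessels, had 35.1 and 19.2 CPM in GFP+ TAM, 12.2 and 115 CPM in GFP- TAM, and 27.4 and 39.2 CPM in naive macrophages, so GFP- TAM held both the lowest and the highest library. Between the TAM groups the log2 fold change of Vegfa was -1.20 ± 0.92 (edgeR adjusted p = 0.546), -2.03 without GFP- TAM replicate 1 and 1.12 without GFP- TAM replicate 2. Adm had 2 and 6 counts in GFP+ TAM, 0 and 29 counts in GFP- TAM, and 11 and 20 counts in naive macrophages, and the 0 allows up to 0.0725 CPM. Ankrd37 stood between 0.727 and 2.74 CPM in the 6 libraries. Bnip3, which promotes removal of mitochondria, was the 1 target whose TAM groups did not overlap, with 10.3 and 13.3 CPM in GFP+ TAM against 9.62 and 6.96 CPM in GFP- TAM. Its log2 fold change was 0.52 ± 0.37 (edgeR adjusted p = 0.518), 0.29 without GFP+ TAM replicate 2 and 0.26 without GFP- TAM replicate 2. GFP- TAM replicate 2, the library with 115 CPM of Vegfa, is also the one with 9.13% of its counts in immunoglobulin genes. The plasma cell libraries had 7.63 and 2.58 CPM of Vegfa, or 23.3 and 8.73 CPM with immunoglobulin counts removed. The part of plasma cell RNA in the value of GFP- TAM replicate 2 was not tested.

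**Figure D3:**
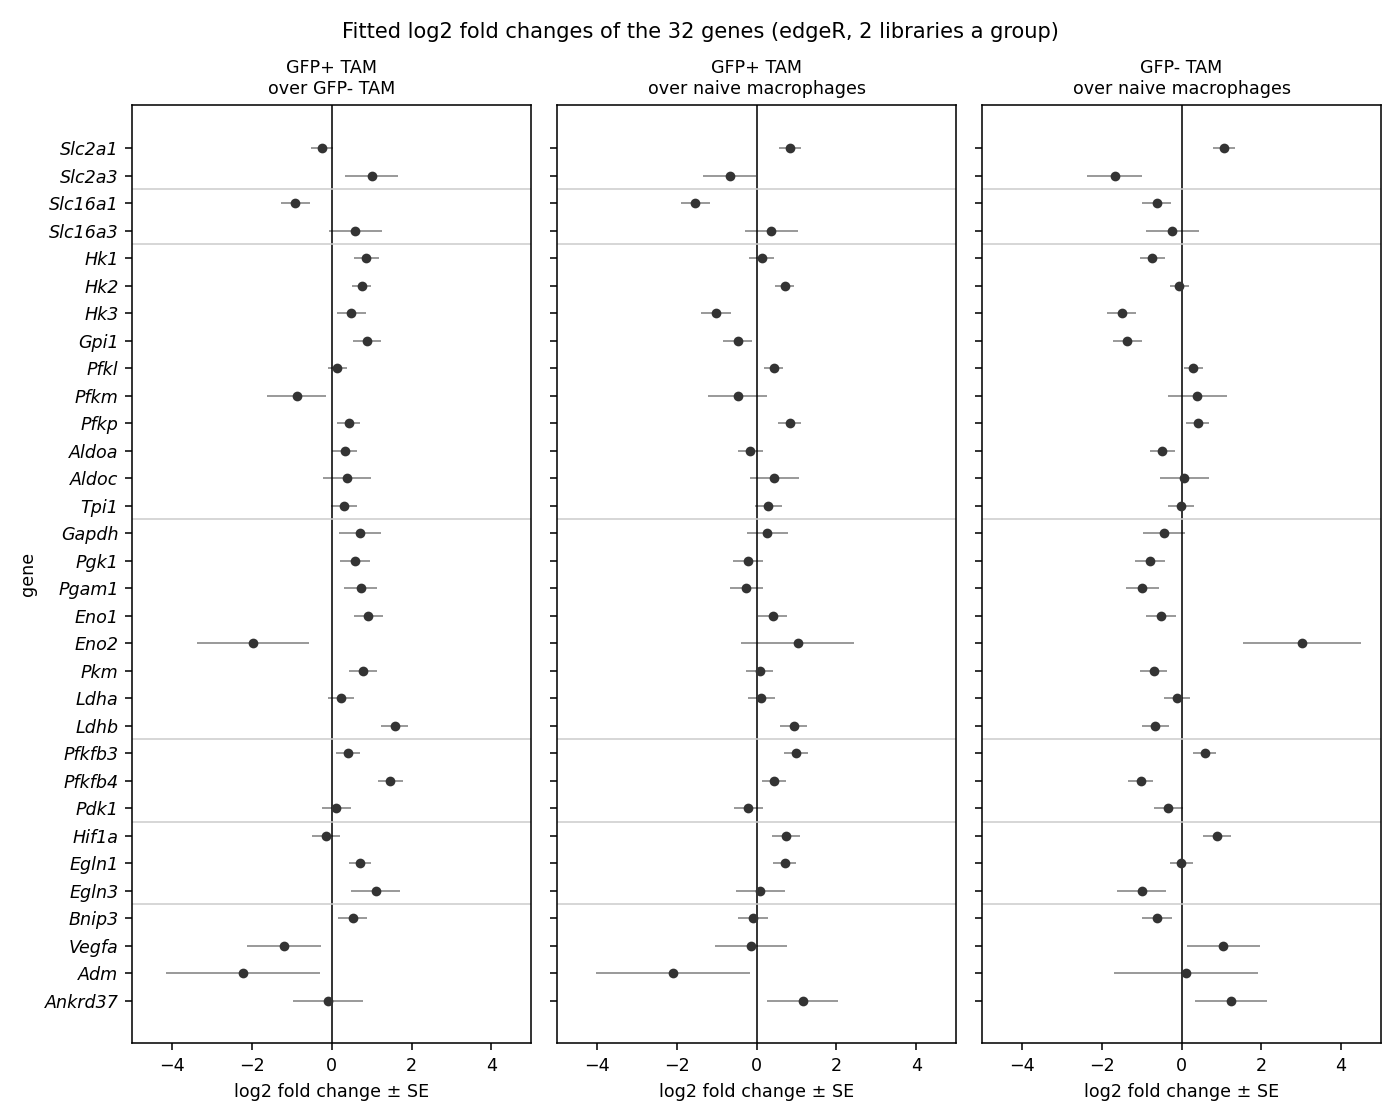
Fitted log2 fold change of each of the 32 genes (rows) in the 3 comparisons of macrophage groups (panels), with bars of 1 standard error and a line at 0. Pfkfb4 (1.47) and Ldhb (1.58) lie farthest to the right in GFP+ TAM over GFP- TAM, and Hk3 (-1.50), Gpi1 (-1.36) and Slc2a3 (-1.68) farthest to the left in GFP- TAM over naive macrophages.

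In the same comparison the summed neutrophil markers of GFP+ TAM lay above those of GFP- TAM, and 7 of the 9 markers did so without overlap. Summed monocyte markers stood at 2007 and 1648 CPM in GFP+ TAM, against 997 and 726 CPM in GFP- TAM. Of these 6 markers 2 lay higher without overlap, and 1 had a negative log2 fold change. Summed macrophage markers ran the other way, and 7 of 10 lay below without overlap in GFP+ TAM. Of 8 eosinophil markers 5 lay higher and 1 lower without overlap. For plasma cells 6 of 8 markers lay lower, and for megakaryocytes and platelets 5 of 5. Over all genes tested 24.4% lay higher and 22.3% lower. The part of these cell type markers in the differences of the 32 genes was not tested. In libraries of many cells, fewer cells of a type and less RNA per cell cannot be told apart. Leaving out GFP- TAM replicate 1 put 4 of the 32 genes past the edgeR threshold, with Egln3 (2.26) and Pfkfb4 (1.77) higher and Pfkm (-1.60) and Vegfa (-2.03) lower, and 1510 genes were called in all. GFP- TAM was then the single library with 9.13% of its counts in immunoglobulin genes, and the spread came from the other groups. Leaving out GFP+ TAM replicate 2 gave the 32 genes a median of 0.29, and leaving out GFP- TAM replicate 2 a median of 0.55, with 0 of the 32 past the threshold in each.

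GFP+ TAM were next set against naive macrophages, and a comparison that shares the GFP+ TAM libraries with the first one. In CPM, both GFP+ TAM libraries lay above both naive ones for 10 genes and below them for 9, where 23.0% and 36.7% of all genes tested did so. CPM leaves out the scaling factors of the fit, which were 0.983 and 0.938 in GFP+ TAM and 1.07 and 1.07 in naive macrophages. The log2 fold change was positive for 20 genes and negative for 12, beside 50.2% positive over all genes tested. Its median was 0.20, beside 0.00 over all genes tested. By the edgeR test 0 of the 32 passed, where 34 of 15522 genes did (0.219%), and 8 of the 32 had an unadjusted p under 0.05, beside 14.6% of all genes tested. DESeq2 called 1 of the 32 (8.50% of the genes it tested) and limma-voom called 0.

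The gene that DESeq2 called was Slc16a1, at a log2 fold change of -1.54 ± 0.37 in edgeR (adjusted p = 0.187), with a DESeq2 adjusted p of 0.00631. Its 3 groups were in full order, with both naive libraries highest and both GFP+ TAM libraries lowest. Without GFP+ TAM replicate 2 the log2 fold change was -1.13. The gene lies at chr3:104638668-104658462 on the plus strand. Slc16a3, the carrier adapted to lactate export from glycolytic cells, had 159 and 232 CPM in GFP+ TAM, 48.9 and 218 CPM in GFP- TAM, and 138 and 202 CPM in naive macrophages, and the ranges overlapped.

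Pfkfb3, the relative of Pfkfb4 with the strongest kinase activity, had 86.2 and 80.6 CPM in GFP+ TAM, 77.9 and 48.3 CPM in GFP- TAM, and 47.8 and 45.8 CPM in naive macrophages. All 4 TAM libraries lay above both naive ones. GFP+ TAM and naive macrophages differed by 0.99 ± 0.30 on the log2 scale (adjusted p = 0.248). Slc2a1, the glucose transporter of most cells, lies at chr4:119108711-119137983 and had 33.4 and 41.1 CPM in GFP+ TAM, 37.0 and 53.1 CPM in GFP- TAM, and 21.9 and 25.1 CPM in naive macrophages. Its 4 TAM libraries also lay above the naive pair, and GFP+ TAM differed from it by 0.83 ± 0.28 (adjusted p = 0.286).

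Other genes that stood higher in both GFP+ TAM libraries than in both naive ones were Hk2, Pfkp, Ldhb and Egln1. The log2 fold change was 0.70 ± 0.24 for Hk2 (adjusted p = 0.290) and 0.92 ± 0.33 for Ldhb (adjusted p = 0.310). Pfkp, the phosphofructokinase first described in platelets, had 151 and 184 CPM in GFP+ TAM and 87.1 and 124 CPM in naive macrophages, a log2 fold change of 0.83 ± 0.28 (adjusted p = 0.296). Egln1 differed by 0.71 ± 0.28 (adjusted p = 0.337), and by 0.43 without GFP+ TAM replicate 2. Hk3 ran the other way, with 415 and 278 CPM in GFP+ TAM against 628 and 929 CPM in naive macrophages (log2 fold change -1.02 ± 0.37, adjusted p = 0.308). Of the 9 neutrophil markers 4 (44.4%) were lower in GFP+ TAM without overlap, where 36.7% of all genes tested were. Their sums overlapped, at 50260 and 28160 CPM in GFP+ TAM and 47630 and 74210 CPM in naive macrophages. Without overlap, macrophage markers lay lower in GFP+ TAM for 7 of 10 and higher for 1, and B cell markers lower for 7 of 7. Erythroid markers lay lower for 6 of 8, and plasma cell markers lower for 5 of 8 and higher for 1. Monocyte markers lay higher for 4 of 6 and lower for 0, where 23.0% of all genes tested lay higher. The part of these markers in Hk3 and in the other genes was not tested. Without GFP+ TAM replicate 2 the log2 fold changes were 0.99 for Pfkfb3, 0.63 for Slc2a1, 0.77 for Hk2, 0.64 for Pfkp, 0.87 for Ldhb and -0.79 for Hk3, and the median of the 32 genes was 0.16. Without GFP+ TAM replicate 1 that median was 0.10, and without naive macrophage replicate 2 it was 0.40. With total counts and no scaling factors it was 0.04, where the median of all genes tested was -0.15.

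**Figure D4:**
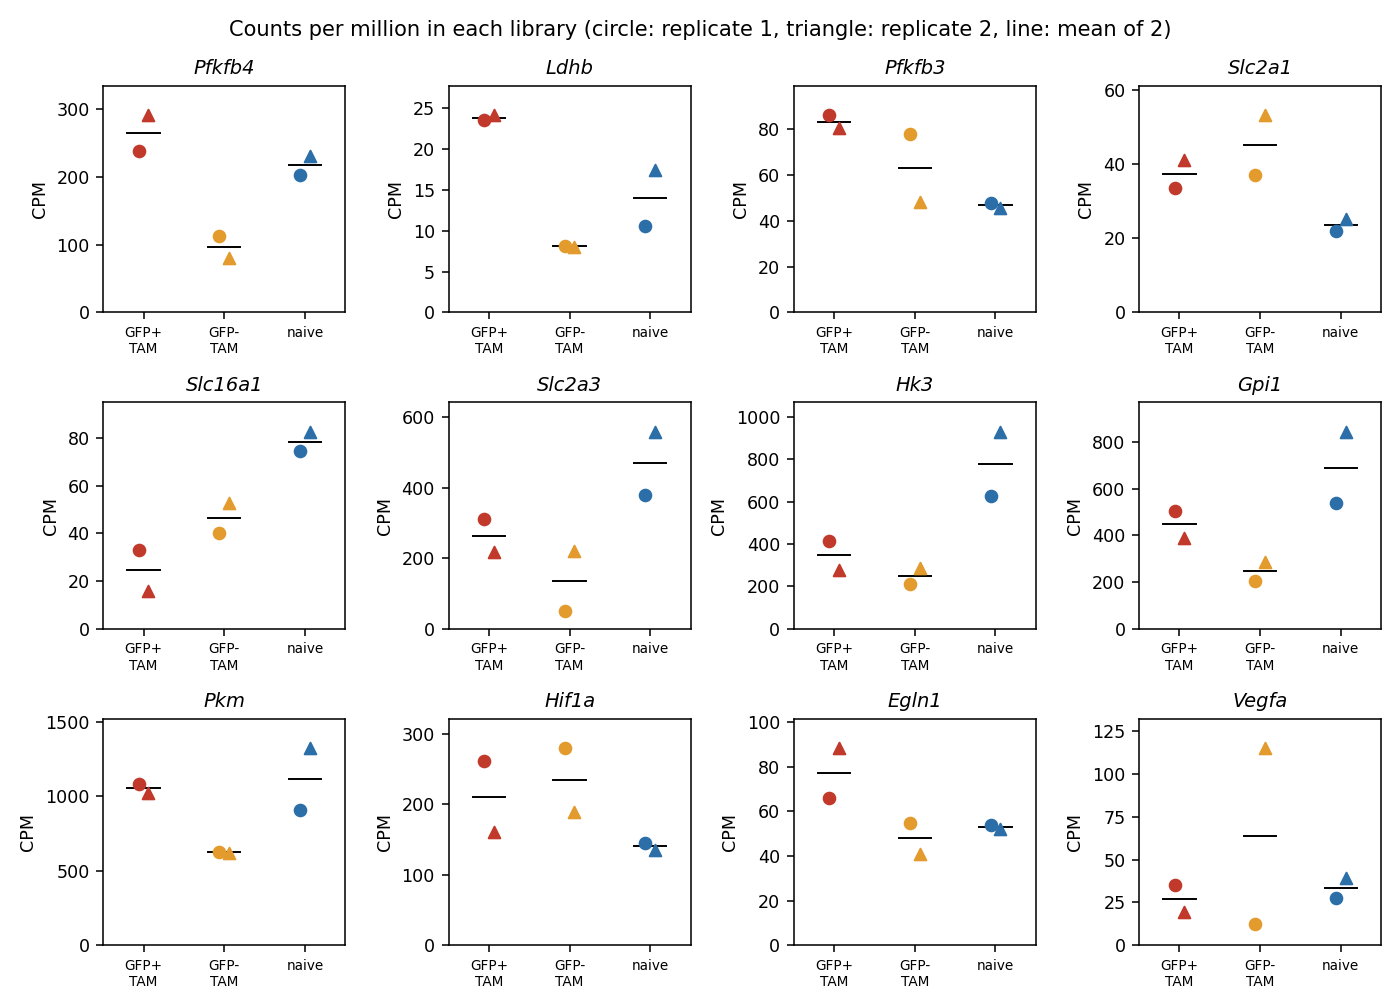
CPM (y axis, linear, from 0) of 12 of the genes in each macrophage library, with circles for replicate 1, triangles for replicate 2 and lines for the mean of 2. Pfkfb4 and Ldhb are lowest in GFP- TAM, Slc2a1 and Pfkfb3 are lowest in naive macrophages, Slc16a1 is lowest in GFP+ TAM, and Vegfa and Slc2a3 are far apart between the 2 libraries of GFP- TAM.

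GFP- TAM were last set against naive macrophages, with libraries shared with both other comparisons. For 14 of the 32 genes, among them Hk3, Gpi1, Pfkfb4, Pkm and Ldhb, both GFP- TAM libraries lay below both naive ones, and for Slc2a1, Hif1a, Pfkfb3 and Eno2 they lay above them, where 28.9% and 16.6% of all genes tested did so. The log2 fold change was negative for 21 genes and positive for 11 (53.7% of all genes tested were positive), and its median was -0.28, beside 0.06 over all genes tested. The lower pathway had a median of -0.58, the upper one of -0.03 and the regulators of -0.33. The 4 hypoxia targets had a median of 0.59, with 3 positive, but 0 of them lay higher without overlap and 1 lay lower. The edgeR test called 0 of the 32 and 0% of the 15522 genes, with 6 of the 32 at an unadjusted p under 0.05, beside 15.2% of all genes tested. DESeq2 called 4 of the 32, of which 1 was higher and 3 lower (8.03% of the genes it tested), and limma-voom called 0.

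Hk3 gave the smallest p, at chr13:55005985-55021385 on the minus strand. It had 213 and 288 CPM in GFP- TAM against 628 and 929 CPM in naive macrophages, a log2 fold change of -1.50 ± 0.37 with an edgeR adjusted p of 0.225 and a DESeq2 adjusted p of 0.00190. Gpi1 had 207 and 285 CPM in GFP- TAM against 538 and 843 CPM in naive macrophages, with a log2 fold change of -1.36 ± 0.37 (edgeR adjusted p = 0.233, DESeq2 adjusted p = 0.00527). For Pfkfb4 it was -1.02 ± 0.30 (edgeR adjusted p = 0.243, DESeq2 adjusted p = 0.0230). In these 3 genes the GFP- TAM pair lay below the naive pair with no overlap. Without GFP- TAM replicate 2, the log2 fold changes were -1.69 for Hk3, -1.56 for Gpi1 and -0.78 for Pfkfb4, and without naive macrophage replicate 2 they were -1.21 for Hk3, -1.01 for Gpi1 and -0.94 for Pfkfb4.

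Slc2a1 and Hif1a stood higher in GFP- TAM than in naive macrophages. The log2 fold change of Slc2a1 was 1.07 ± 0.28 (edgeR adjusted p = 0.229, DESeq2 adjusted p = 0.0312), and 0.83 without GFP- TAM replicate 2. Hif1a differed by 0.88 ± 0.35 (adjusted p = 0.314). Slc2a3, the high-affinity glucose transporter of neurons and leukocytes, had 49.4 and 221 CPM in GFP- TAM against 379 and 559 CPM in naive macrophages, with a log2 fold change of -1.68 ± 0.68 (adjusted p = 0.327). Its lowest library, GFP- TAM replicate 1, is also the one with the lowest summed neutrophil markers. Without GFP- TAM replicate 2 the log2 fold change of Slc2a3 was -3.07, with an edgeR adjusted p of 0.0449, and without GFP- TAM replicate 1 it was -1.01. Pgam1 (-0.98 ± 0.42) and Hk1 (-0.74 ± 0.31) were lower in both GFP- TAM libraries, each with an adjusted p of 0.339. Over the fits that each left out 1 library, Hif1a lay between 0.50 (without GFP- TAM replicate 1) and 1.16 (without GFP- TAM replicate 2), Pgam1 between -1.25 and -0.69, and Hk1 between -1.01 and -0.42 (without naive macrophage replicate 2). The median of the 32 genes lay between -0.44 (without GFP- TAM replicate 1) and -0.20 (without naive macrophage replicate 2).

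Neutrophil markers were lower in GFP- TAM than in naive macrophages for 8 of the 9 genes without overlap, where 28.9% of all genes tested were. Other markers ran the other way. Of 5 megakaryocyte and platelet markers 4 lay higher without overlap, and of 8 plasma cell markers 3 did, where 16.6% of all genes tested did so. Eosinophil markers summed to 238 and 637 CPM in GFP- TAM against 1725 and 2275 CPM in naive macrophages, and B cell markers to 150 and 168 CPM against 403 and 502 CPM. The part of all these markers in the differences of the 32 genes was not tested.

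Seen over all 3 groups, GFP- TAM was clearly lowest, with both libraries under the other 4, for 11 of the 32 genes (14.3% of all genes tested), GFP+ TAM for 1 (13.9%) and naive macrophages for 3 (8.21%). The lowest library was GFP- TAM replicate 1 for 10 genes and replicate 2 for 13, beside 24.1% and 24.6% of all genes tested. GFP+ TAM was clearly highest for 7 genes, among them Pfkfb3, Pfkfb4, Ldhb, Hk2 and Egln1 (10.3% of all genes tested), GFP- TAM for 1, Eno2 (8.29%), and naive macrophages for 7, among them Slc16a1, Hk3, Gpi1 and Aldoa (16.6%). For the other genes no group stood clear at the top. These orders were read from CPM, without the scaling factors of the fit. Those factors were highest in the naive libraries and would place them lower against the TAM libraries.

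Families of enzymes with the same reaction differed in which member made up the RNA, as a share of the family in CPM per kilobase of exon. These shares are given as a description and were not tested. Hk3 made up 73.9% and 71.3% of hexokinase RNA in GFP+ TAM, 74.6% and 79.5% in GFP- TAM, and 86.3% and 87.4% in naive macrophages. Hk1 and Hk2 thus held a larger share in every TAM library than in either naive one. Slc2a1 made up 18.2% and 28.0% of the Slc2a1 and Slc2a3 pair in GFP+ TAM, 60.8% and 33.2% in GFP- TAM, and 10.6% and 8.50% in naive macrophages, again without overlap between TAM and naive libraries.

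Between the 2 Pfkfb genes, Pfkfb3 held 19.0% and 15.2% in GFP+ TAM, 30.9% and 27.9% in GFP- TAM, and 13.2% and 11.3% in naive macrophages, and the 3 groups did not overlap. Ldhb held 7.76% and 9.86% of the lactate dehydrogenase pair in GFP+ TAM, 3.23% and 4.17% in GFP- TAM, and 4.51% and 5.70% in naive macrophages. Slc16a1 held 20.0% and 7.60% of the monocarboxylate carrier pair in GFP+ TAM, against 49.6% and 22.5% in GFP- TAM and 39.3% and 32.9% in naive macrophages. Pfkl was the most abundant of its family in all 6 libraries, at 53.6% to 66.1%. Pfkm, the muscle form, held its largest share in GFP- TAM replicate 2, and 3.10% to 10.7% in each other library.

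**Figure D5:**
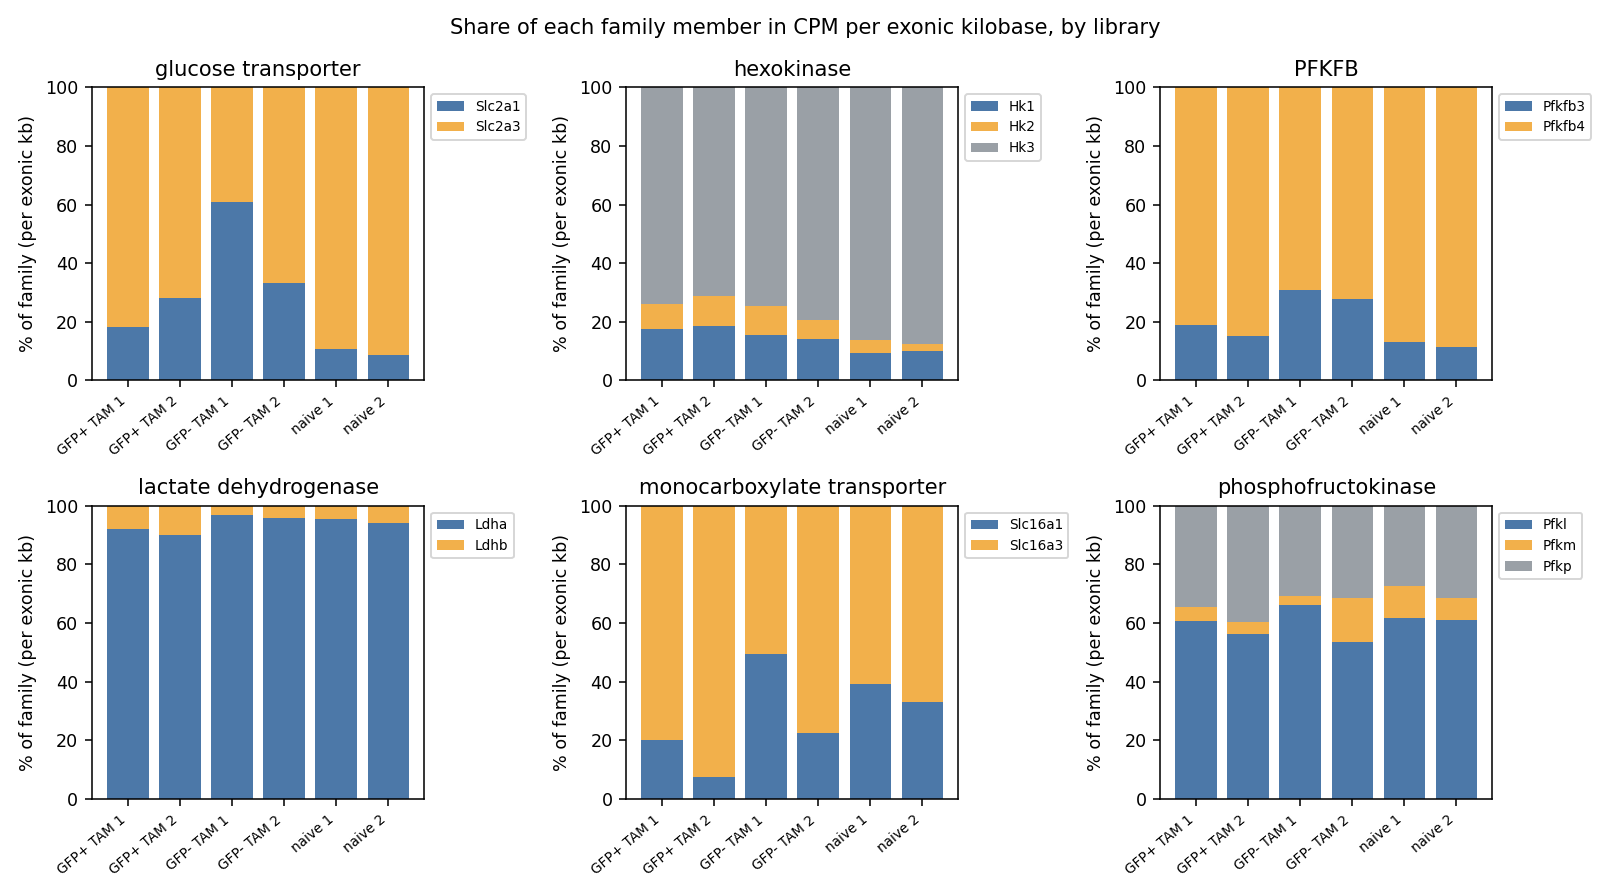
Share of each family member in CPM per exonic kilobase (stacked bars, percent) in each macrophage library for 6 enzyme and transporter families. The share of Hk3 is largest in both naive libraries (86.3% and 87.4%), the share of Ldhb is largest in both GFP+ TAM libraries (7.76% and 9.86%), and the share of Slc2a1 is largest in GFP- TAM replicate 1 (60.8%).

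Other genes around the pathway were read from lists of their own, and the edgeR test called 0 genes of each list in each comparison. The pentose phosphate pathway, which branches off after hexokinase and makes NADPH, had 9 genes, and all were tested. Both GFP+ TAM libraries lay above both of GFP- TAM for 7 of the 9 and below for 0, where 24.4% and 22.3% of all genes tested did so, and the median log2 fold change was 0.62. DESeq2 called 4 of them higher, where it called 10.3% of the genes it tested in either direction. G6pdx, its first enzyme, had 658 and 675 CPM in GFP+ TAM, 281 and 277 CPM in GFP- TAM, and 693 and 834 CPM in naive macrophages. Between the TAM groups G6pdx differed by 1.27 ± 0.30 (edgeR adjusted p = 0.178, DESeq2 adjusted p = 8.13e-06). Pgd, a later oxidative enzyme, had 526 and 493 CPM in GFP+ TAM, 263 and 288 CPM in GFP- TAM, and 615 and 874 CPM in naive macrophages, and its log2 fold change between the TAM groups was 0.91 ± 0.31 (edgeR adjusted p = 0.240). For GFP- TAM over naive macrophages 7 of the 9 lay lower without overlap (28.9% of all genes tested), with a median of -0.69, and for GFP+ TAM over naive macrophages the median was -0.04.

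The tricarboxylic acid cycle, which burns the acetyl units made from pyruvate, had 17 genes tested, with medians of 0.03 for GFP+ TAM over GFP- TAM, -0.02 for GFP+ TAM over naive macrophages and -0.02 for GFP- TAM over naive macrophages. Between the TAM groups 3 of its genes lay higher and 3 lower without overlap, or 17.6% each, where 24.4% and 22.3% of all genes tested did so. Suclg2, a subunit of succinyl-CoA ligase, had the smallest p, with 15.9 and 13.9 CPM in GFP+ TAM, 22.2 and 28.6 CPM in GFP- TAM, and 31.3 and 28.1 CPM in naive macrophages. Of the 12 genes for entry of pyruvate into mitochondria 11 were tested, and their median between the TAM groups was -0.05.

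Further hypoxia targets, 28 of 29 tested, had a median log2 fold change of -0.21 between the TAM groups. Of these 4 (14.3%) lay higher and 10 (35.7%) lower in GFP+ TAM without overlap, where 24.4% and 22.3% of all genes tested did so. P4ha2, a collagen prolyl hydroxylase, had 0.157 and 0.166 CPM in GFP+ TAM, 1.86 and 12.9 CPM in GFP- TAM, and 0.811 and 0.935 CPM in naive macrophages. Sap30, a subunit of a histone deacetylase complex, stood at 112 and 152 CPM in GFP+ TAM, against 55.5 and 32.5 CPM in GFP- TAM and 37.7 and 46.3 CPM in naive macrophages. GFP+ TAM differed from naive macrophages in Sap30 by 1.82 ± 0.37 (edgeR adjusted p = 0.142, DESeq2 adjusted p = 0.000754).

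Other genes of glycolysis and gluconeogenesis, 25 of 31 tested, had a median of -0.19 between the TAM groups, with 5 higher and 8 lower in GFP+ TAM without overlap, where 24.4% and 22.3% of all genes tested did so. Eno3, the enolase of muscle, had 93.3 and 602 CPM in GFP+ TAM, 28.4 and 89.9 CPM in GFP- TAM, and 13.1 and 12.7 CPM in naive macrophages, and every TAM library lay above both naive ones. The difference in Eno3 between GFP+ TAM and naive macrophages was 4.93 ± 1.06 (edgeR adjusted p = 0.156, DESeq2 adjusted p = 1.69e-06), and it was 2.97 without GFP+ TAM replicate 2. Slc2a6, a transporter of the glucose transporter family, had 99.2 and 195 CPM in GFP+ TAM, 67.3 and 112 CPM in GFP- TAM, and 32.6 and 50.2 CPM in naive macrophages. Further oxygen sensing genes, 10 of 11 tested, had medians of 0.05, 0.36 and 0.34 in the 3 comparisons as ordered above. Hif1an, the asparagine hydroxylase that restrains hypoxia-inducible factor, had 64.3 and 40.2 CPM in GFP+ TAM, 30.9 and 24.1 CPM in GFP- TAM, and 46.8 and 50.5 CPM in naive macrophages.

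In plasma cells, 28 of the 32 genes stood below every macrophage library in CPM. Immunoglobulin genes took 67.3% and 70.4% of the plasma cell counts, and with those counts removed 14 of the 32 were below every macrophage library and 1 was above. The matching shares over all genes are not given here, so these counts are not read as a trait of the 32 genes. Aldoa then had 463 and 391 CPM in the plasma cell libraries, within the 382 to 679 CPM of the macrophage libraries. Hk3 had 35.9 and 18.8 CPM in plasma cells, against 214 to 935 CPM in macrophages. Aldoc was the gene above every macrophage library, at 18.2 and 9.61 CPM in plasma cells against 2.40 to 5.49 CPM in macrophages. Pdk1 had 70.3 and 20.5 CPM in plasma cells and 40.1 to 81.3 CPM in macrophages. The tables were made separately and both plasma cell libraries carry 1 label, so these levels were not tested.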

How the data were processed

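Sorted bone marrow macrophages (6 samples) and plasma cells (2 samples) were profiled by bulk RNA sequencing with SMART-Seq v4 chemistry, per the labels' protocols, which copies full-length transcripts and keeps no strand. The authors deposited raw counts of reads for each gene. Tools and builds named in the submitters' processing notes, with no role or order, are featureCounts, STAR, DESeq2 1.26, GRCm38 and mm10. Neither the annotation release nor the counting of reads that map to several genes is stated in what was used here. Columns were matched to samples by title, and 0 columns had no sample.

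Macrophage identifiers were matched to GENCODE M21 without their version (47224 of 47643), and 48081 of 52458 plasma cell symbols were found there. CPM uses the library's total count, and overlap of libraries was read from CPM without the TMM scaling factors. Fitted log2 fold changes use these factors. The 6 macrophage libraries went into a single edgeR quasi-likelihood fit over all genes with group as its term, with TMM scaling and filterByExpr (minimum count 10, minimum total count 15), which kept 15522 genes and left 3 residual degrees of freedom. A gene counted as called when its p, adjusted by Benjamini and Hochberg over all genes tested, was under 0.05. Where no tool is named, adjusted p-values come from edgeR. Tools were R 4.3.3, edgeR 4.0.16, limma 3.58.1, DESeq2 1.42.0, Python 3.11.15, numpy 2.4.6, pandas 2.3.3 and matplotlib 3.10.9. The scripts were tested on simulated counts.

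All 32 genes are given with values or ranges, and the 8 with the smallest edgeR p in a comparison with a log2 fold change, its standard error and an adjusted p. Of each other list up to 2 genes with the smallest p in a comparison could be named. The 32 genes and all lists were chosen with earlier results of these data known. Alternatives were DESeq2, limma-voom, bias-adjusted quasi-dispersions, RLE factors, no factors, immunoglobulin genes left out, no filter, a minimum count of 50, only the groups compared, a replicate block by mouse number, and each library left out in turn.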

Additional observations from a re-analysis of the deposited data

How the results depend on the processing

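The log2 fold changes of the genes with the smallest edgeR p in each comparison, 24 in all, were recomputed under 16 alternatives. Of these 384 values 369 kept both direction and side of the threshold. A further 15 passed the threshold where the value in the report had not, and 0 reversed. Other log2 fold changes in the report are outside this count, and some changed sign. Between the TAM groups Vegfa went from -1.20 to 1.12 without GFP- TAM replicate 2. Hif1a went from -0.15 to 0.21 without GFP- TAM replicate 1. With 2 libraries a group the count of all genes called was unstable. For GFP+ TAM over GFP- TAM it was 0 in the report, 22 with bias-adjusted quasi-dispersions, 1871 with no filter, 1569 with DESeq2 and 0 to 1510 when 1 library was left out. For GFP+ TAM over naive macrophages it was 34 in the report, 56 with bias-adjusted quasi-dispersions, 22 with RLE factors, 18 with no factors, 20 with immunoglobulin genes left out, 1437 with no filter, 664 with only the 2 groups compared, 0 with limma-voom, 1217 with DESeq2 and 0 to 534 when 1 library was left out. For GFP- TAM over naive macrophages it was 0 in the report, 1548 with no filter, 1247 with DESeq2 and 0 to 477 when 1 library was left out. Among the 32 genes, in the same order of comparisons, no filter called 2, 1 and 3, DESeq2 called 2, 1 and 4, and leaving out 1 library called 0 to 4, 0 to 0 and 0 to 1. The median log2 fold change of the 32 genes for GFP+ TAM over naive macrophages was 0.20 in the report, 0.10 to 0.40 when 1 library was left out and 0.04 with no factors, a setting that gave all genes tested a median of -0.15, against 0.00 in the report. It was -0.51 with the replicate block and -0.50 with limma-voom for GFP- TAM over naive macrophages, against -0.28 in the report. The cause was not tested.

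The mouse numbers could be used as a replicate block for the TAM groups. Deviations of same-numbered TAM libraries correlated at 0.152 across 15522 genes, but the counts of Xist and Ddx3y differ between the libraries numbered 2, so the number is not taken as a pairing. The replicate block called 59 genes for GFP+ TAM over GFP- TAM and 187 for GFP+ TAM over naive macrophages, and 0 of the 32 genes in any of the 3 comparisons. Below about 3 CPM, as for Adm, Eno2 and Ankrd37, counts limit the precision.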
